A study of Arabidopsis thaliana with 12 samples.

Results

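Transcripts of 4 nuclear genes for proteins of the plastid ribosome were followed in Arabidopsis thaliana: RPS6 (AT1G64510) and RPS10 (AT3G13120) of the small subunit, and RPL17 (AT3G54210) and RPL34 (AT1G29070) of the large subunit. They were chosen by locus among the probes that the platform annotation assigns to a single gene, and make up 4 of the 689 genes with a probe of their own on the array. Each of the 4 had 1 such probe. The 12 samples were total RNA of plants of the ecotype Columbia 0 on MS medium, a standard plant culture medium. The wild type (WT) gave 6 samples and pete1, a mutant without one of the isoforms of plastocyanin, gave the other 6. Plastocyanin is a copper protein of the thylakoid lumen that passes electrons from the cytochrome b6f complex to photosystem I. The labels name no allele of pete1, no tissue and no plant age, and do not say whether the samples of a genotype were separate plants. All p-values rest on the spread among these samples alone, and that spread may be technical.

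The plastid ribosome is of the bacterial type and translates the messages of the plastid genome, among them those of core subunits of both photosystems and of the large subunit of Rubisco. Its RNAs and part of its proteins are encoded in the plastid. The remaining proteins, including the products of all 4 genes described here, are encoded in the nucleus, made in the cytosol and imported, so that assembly of a ribosome draws on both genomes.

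The measurements were hybridisation intensities on a linear scale for 3439 probes, and the number of arrays limits their precision. The median deposited intensity of a sample was 0.485 to 0.627 in WT and 0.279 to 0.331 in pete1, so most probes were dimmer in pete1 before any further scaling. Over all probes the median log2 fold change of pete1 against WT was -0.73 as deposited and -0.01 after the samples were quantile normalised, which gives every sample the same distribution of values. A change on the normalised scale is thus a change relative to the other probes of the sample. Neighbouring sample numbers of a genotype, that is 1 and 2, 3 and 4, or 5 and 6, were more alike (Spearman correlation 0.955 to 0.980) than other samples of a genotype (0.849 to 0.901), and their values are given apart. Of the marker genes listed for other organs, none of 6 for root, 5 for flower and 4 for seed had a probe of its own, so the makeup of the tissue was not checked.

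Of the 4 genes, only RPS6 passed the test after quantile normalisation, with higher values in pete1 (limma, Benjamini-Hochberg over all 3439 probes, threshold 0.05). Of all probes 21.7% passed in that fit, made up of 10.7% higher and 11.0% lower in pete1. A count of 1 in 4 is therefore close to the share among all probes. RPS10 and RPL17 lay above 0 without passing, and RPL34, listed at 0 in 5 of the 12 samples, lay below 0. The median log2 fold change of the 4 was 0.74, against -0.01 for all probes. The genes were chosen with earlier results of these data known, so this median is a description and not a test. As deposited none of the 4 passed, where 54.1% of all probes did, and their median was -0.14 against -0.73 for all probes. In bulk RNA, fewer cells that express a gene and less transcript per cell cannot be told apart.

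**Figure D1:**
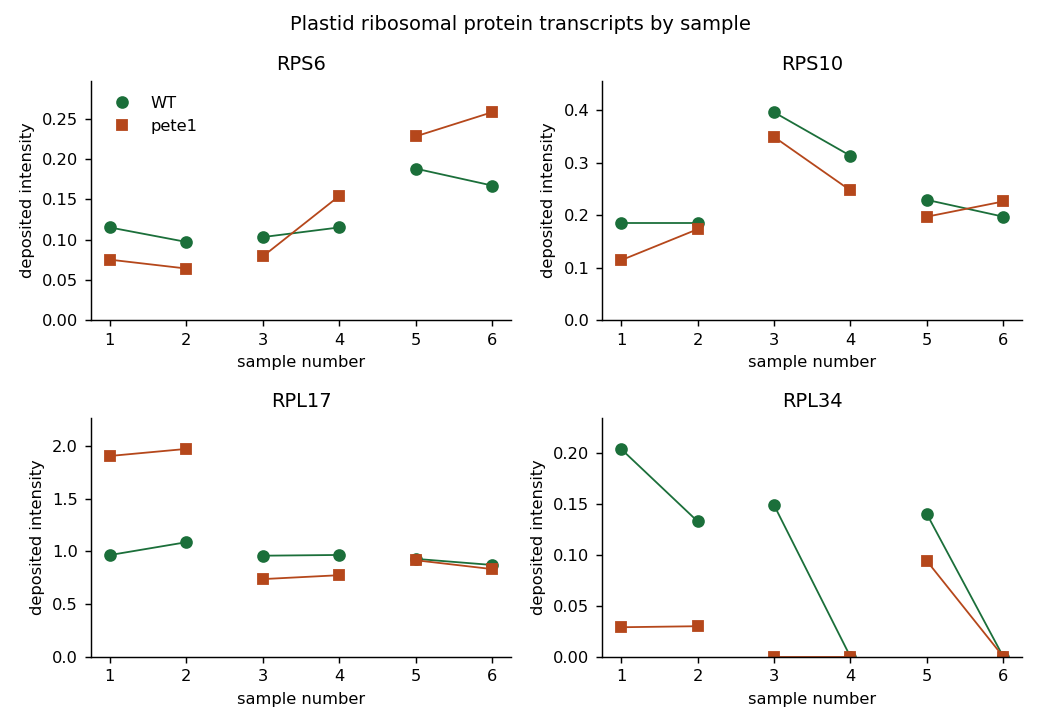
Deposited intensity (linear scale, vertical axis) of RPS6, RPS10, RPL17 and RPL34 by sample number (horizontal axis) in WT (circles) and pete1 (squares), 1 point per sample, with lines joining consecutive numbers. RPS6 was highest at numbers 5 and 6 in both genotypes, RPS10 was highest at 3 and 4 in both, RPL17 stood out in pete1 1 and 2, and RPL34 was listed at 0 in 5 samples.

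RPS6 is a protein of the small subunit, which in Escherichia coli sits with its partner S18 on the platform of that subunit. Its deposited intensity in WT had a lowest value of 0.097, a median of 0.115 and a highest value of 0.188. In pete1 the lowest was 0.064, the median 0.117 and the highest 0.258. The groups overlapped in intensity, with 2 pete1 samples above every WT sample and 3 below every WT sample.

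Shown by number, RPS6 was at 0.115 and 0.097 in WT 1 and 2, at 0.103 and 0.115 in WT 3 and 4, and at 0.188 and 0.167 in WT 5 and 6. In pete1 the same numbers gave 0.075 and 0.064, then 0.079 and 0.154, then 0.228 and 0.258. Both genotypes thus had their highest RPS6 at numbers 5 and 6, and pete1 was below WT at 1 and 2 and above it at 5 and 6. The probe was dim: in WT it lay between the 8.8 and 16.3 percentile of the sample's probes, and in pete1 between 14.8 and 42.0. By this percentile rank 5 of 6 pete1 samples lay above every WT sample, and each pete1 sample ranked above the WT sample of its number.

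After normalisation the log2 fold change of RPS6 was 1.44 (95% interval 0.52 to 2.35, limma adjusted p = 0.0323). That is larger than 94.9% of all probes. As deposited the difference was -0.05 (95% interval -0.88 to 0.78, limma adjusted p = 0.948), and the mean intensity was 0.131 ± 0.0375 (SD, n = 6) for WT samples and 0.143 ± 0.0843 for those of pete1. Relative to the median of all probes the deposited log2 fold change was 0.69. Quantile normalised with the larger offset, the log2 fold change was 0.90 and the call held (limma adjusted p = 0.0266). After median centring in place of quantile normalisation it was 0.77 without a call (limma adjusted p = 0.130). The call held in a fit blocked on the sample number (limma adjusted p = 0.00245). It was lost when consecutive numbers formed a random block (limma adjusted p = 0.183), in a fit that called 4.74% of all probes, and when they were averaged to 3 against 3 (limma adjusted p = 0.328), where 0.204% were called. It was also lost without numbers 3 and 4 (limma adjusted p = 0.118, with 20.5% of probes called) and on leaving out WT 1, WT 2, pete1 4, pete1 5 or pete1 6 alone (limma adjusted p of 0.0705, 0.0589, 0.0601, 0.0621 and 0.0609).

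RPS10 belongs to the head of the small subunit in bacteria, where the protein also takes part in transcription antitermination. Its deposited intensity ranged from 0.185 through a median of 0.213 to 0.396 in WT, and from 0.114 through 0.212 to 0.349 in pete1. The medians nearly coincided and the groups overlapped. WT 3 and 4 were at 0.396 and 0.313 and pete1 3 and 4 at 0.349 and 0.247. The other WT samples lay at 0.185 and 0.185 (numbers 1 and 2) and 0.229 and 0.197 (numbers 5 and 6), and the other pete1 samples at 0.114 and 0.173 and at 0.197 and 0.226. Numbers 3 and 4 were therefore the high ones for RPS10 in both genotypes.

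The percentile rank of RPS10 was 23.3 ± 10.9 (SD, n = 6) for WT samples against 37.4 ± 9.8 for pete1 samples, and pete1 ranked above WT at each of the 6 numbers. The normalised log2 fold change was 0.85 (95% interval 0.14 to 1.55) and did not pass (limma adjusted p = 0.0842). As deposited it was -0.22 (95% interval -0.84 to 0.39, limma adjusted p = 0.515). In the fit blocked on the sample number RPS10 passed (limma adjusted p = 0.0137). There 2 of the 4 genes rose, RPS6 and RPS10, where 21.6% of all probes passed and 11.0% were higher in pete1. RPS10 also passed without numbers 3 and 4 (1.0 in log2 units, limma adjusted p = 0.0132, where 9.16% of probes were higher) and without WT 3 alone (1.06, limma adjusted p = 0.0261). It did not pass where consecutive numbers formed a random block (limma adjusted p = 0.312) or were averaged (limma adjusted p = 0.406).

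RPL17 lies near the exit of the peptide tunnel in bacteria. Its intensity in WT went from 0.871 through a median of 0.962 to 1.087, a mean of 0.963 ± 0.0705 (SD, n = 6). In pete1 samples 1 and 2 were at 1.905 and 1.972, whereas 3 and 4 were at 0.737 and 0.774 and 5 and 6 at 0.916 and 0.832. The pete1 group thus held 2 samples above all of WT and 3 below all of WT. Samples pete1 1 and 2 also had the lowest medians of the 12, 0.279 and 0.289, and the part of this in the RPL17 values was not tested.

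In percentile rank the genotypes did not overlap for RPL17. WT lay between 69.8 and 75.7 and pete1 between 78.0 and 91.8, with pete1 1 and 2 both at 91.8. Of all probes, 10.3% had every pete1 sample ranked above every WT sample. For RPS10, 2 of 6 pete1 samples ranked above every WT sample. The ranking of pete1 above WT at all 6 numbers, seen in RPS6, RPS10 and RPL17, was found in 19.5% of all probes. Both shares count probes at 0 in every sample, such as that of RPL29, because tied zeros ranked higher in pete1. A pete1 sample had 244 to 293 probes at 0, against 170 to 206 in a WT sample.

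**Figure D2:**
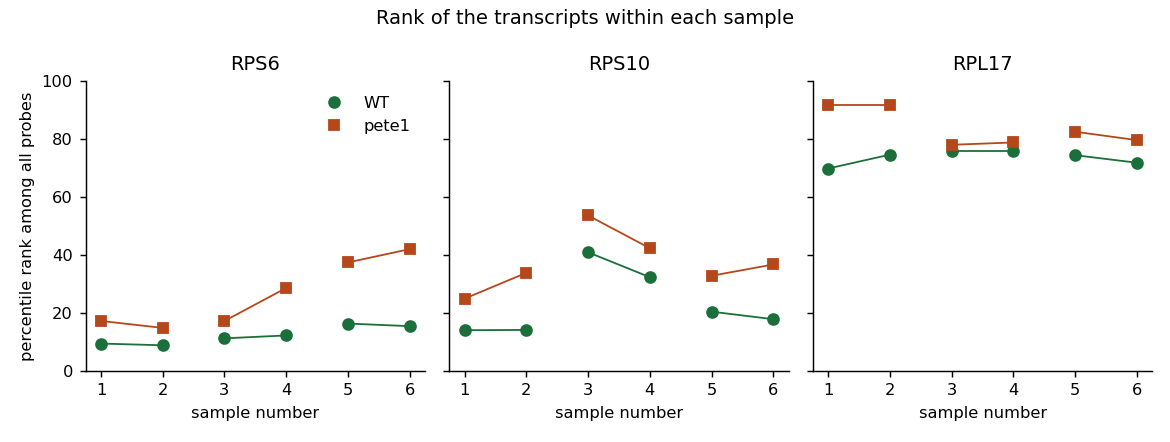
Percentile rank among all 3439 probes of the sample (vertical axis, 0 to 100) for RPS6, RPS10 and RPL17 by sample number (horizontal axis), WT as circles and pete1 as squares, 1 point per sample, with lines joining consecutive numbers. Each pete1 point lies above the WT point of its number, and the genotypes do not overlap for RPL17, at 69.8 to 75.7 in WT and 78.0 to 91.8 in pete1.

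The normalised log2 fold change of RPL17 was 0.64 (95% interval 0.16 to 1.11) and did not pass (limma adjusted p = 0.0573). As deposited it was 0.18 (95% interval -0.40 to 0.75, limma adjusted p = 0.593). Blocked on the sample number it did not pass either (limma adjusted p = 0.0950). Without numbers 1 and 2 of both genotypes it was 0.26 (95% interval 0.09 to 0.43) and did not pass (limma adjusted p = 0.0546). Leaving out pete1 1 and 2 alone, a choice made after seeing the data, gave 0.28 (95% interval 0.12 to 0.44) and a call (limma adjusted p = 0.0279), in a fit that called 10.5% of all probes higher in pete1. In the deposited intensities the same omission turned the difference to -0.24, lower in pete1 (limma adjusted p = 0.0316), where 50.1% of all probes were called lower. RPL17 also passed after median centring (0.99, limma adjusted p = 0.0278, where 19.3% of probes were higher), without pete1 3 alone (0.71, limma adjusted p = 0.0457), and when only probes above 0 in all samples were tested (limma adjusted p = 0.0468, where 13.1% were higher).

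RPL34 is among the smallest and most basic proteins of the bacterial large subunit. Its probe was read at 0.204 and 0.133 in WT 1 and 2, at 0.149 in WT 3 and at 0.140 in WT 5, while WT 4 and WT 6 were listed at 0. In pete1 it was at 0.029 and 0.030 in samples 1 and 2 and at 0.094 in sample 5, while samples 3, 4 and 6 were listed at 0. No pete1 sample was above the WT sample of its number, and numbers 4 and 6 were at 0 in both genotypes. Of all probes, 52.6% were lower in pete1 at all 6 numbers. That share leaves out probes with a tie, such as RPL34, and the share with no pete1 sample above was not counted. By percentile rank RPL34 was higher in pete1 at 3 numbers, at 5 and at 4 and 6 with their tied zeros. In the pairs WT 3 and 4, WT 5 and 6 and pete1 5 and 6, 1 sample gave a value and its neighbour a 0, so the consecutive numbers did not agree near the lower end.

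At numbers 1 and 2, where all 4 samples had a value, the deposited log2 fold change of RPL34 was -2.50, against a median of -1.03 over all probes at those numbers. After normalisation it was -0.52. Over all 12 samples the fit gave -1.93 with an interval from -8.92 to 5.05 (limma adjusted p = 0.708), since zeros lay at -14.36 on the log2 scale with the small offset. With a larger offset the value was -0.31 (95% interval -1.26 to 0.64). A difference in RPL34 was not detectable at this signal.

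A further 2 genes among 67 listed for the plastid ribosome had a probe of their own, RPL5 (AT4G01310) and RPL29 (AT5G65220). Bacterial L5 holds the 5S RNA in the central protuberance of the large subunit. RPL5 was at 0.346 to 0.732 in WT (median 0.613) and at 0.325 to 0.518 in pete1 (median 0.393), lower in pete1 at all 6 numbers, as were 52.6% of all probes. Its log2 fold change was 0.36 after normalisation (95% interval -0.24 to 0.97, limma adjusted p = 0.383) and -0.42 as deposited (limma adjusted p = 0.108). RPL29, which binds near the tunnel exit in bacteria, was listed at 0 in all 12 samples and gave no measurement. Of the 5 genes above 0 in some sample, RPS6 rose, none fell and the other 4 did not pass (limma), against 21.7% of all probes passing and 10.7% rising. Among the 10 translation factors and 9 ribosome assembly factors of the plastid that were listed, none had a probe of its own.

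**Figure D3:**
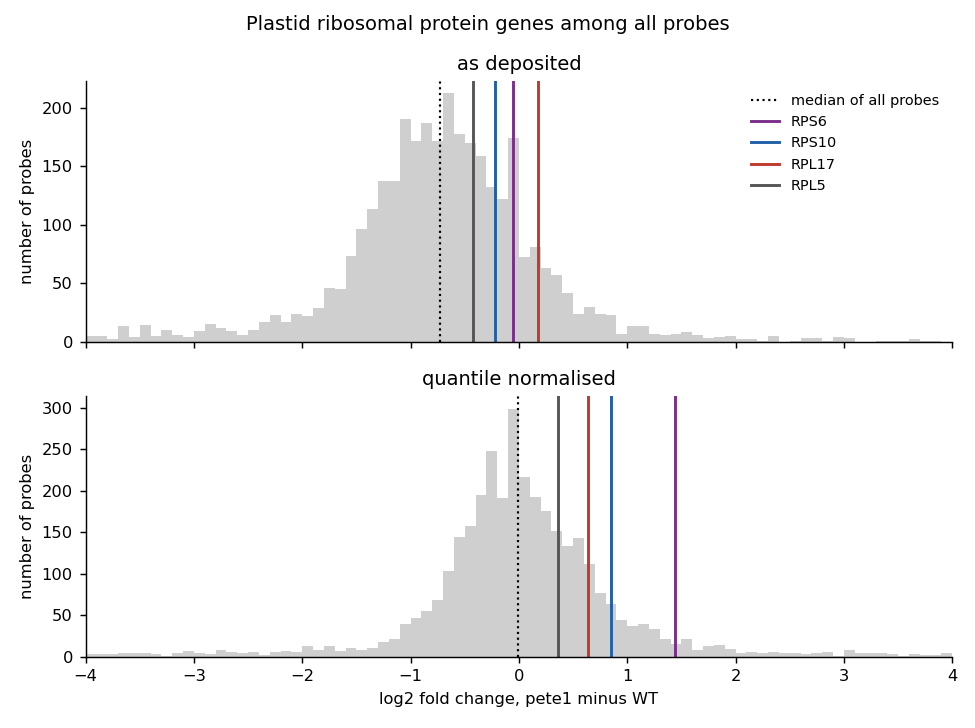
Number of probes (vertical axis) by log2 fold change of pete1 against WT (horizontal axis, cut at -4 and 4, with 139 probes beyond it as deposited and 94 normalised), as deposited (top) and quantile normalised (bottom), with lines for RPS6, RPS10, RPL17 and RPL5 and a dotted line for the median of all probes. RPL34 is not drawn because its fold change, -2.86 as deposited and -1.93 normalised, rests on zeros and lies left of the median. The 4 lines drawn lie to the right of it on both scales, from -0.42 to 0.18 as deposited against a median of -0.73, and from 0.36 to 1.44 normalised against -0.01.

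The place of the genes among all probes depended on the scale. As deposited, the log2 fold change of RPL17 exceeded 88.5% of probes, that of RPS6 80.8%, that of RPS10 74.9% and that of RPL5 66.6%, while that of RPL34 exceeded 6.3%. After normalisation RPS6 came first, above 94.9% of probes, followed by RPS10 at 88.6%, RPL17 at 83.6% and RPL5 at 72.6%, with RPL34 at 4.9%. The value of RPL34 rests on its zeros. The order of RPS6 and RPL17 was thus exchanged. Normalisation moved the log2 fold change of RPS6, a dim probe, from -0.05 to 1.44, and that of RPL17 from 0.18 to 0.64.

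The deposited fold change at each pair of numbers differed between the genes. RPS6 was at -0.62 for numbers 1 and 2, at 0.03 for 3 and 4 and at 0.45 for 5 and 6 on the log2 scale. RPL17 went the other way, at 0.92, -0.35 and -0.04. RPS10 was at -0.40, -0.26 and -0.01, and the median of all probes at -1.03, -0.62 and -0.51. The 3 genes were therefore above the median of all probes at every pair, RPS6 by 0.42, 0.65 and 0.96, RPS10 by 0.63, 0.36 and 0.50, and RPL17 by 1.95, 0.27 and 0.47. No single pair carried the difference of RPS10 from the median, whereas numbers 1 and 2 gave most of that of RPL17.

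**Figure D4:**
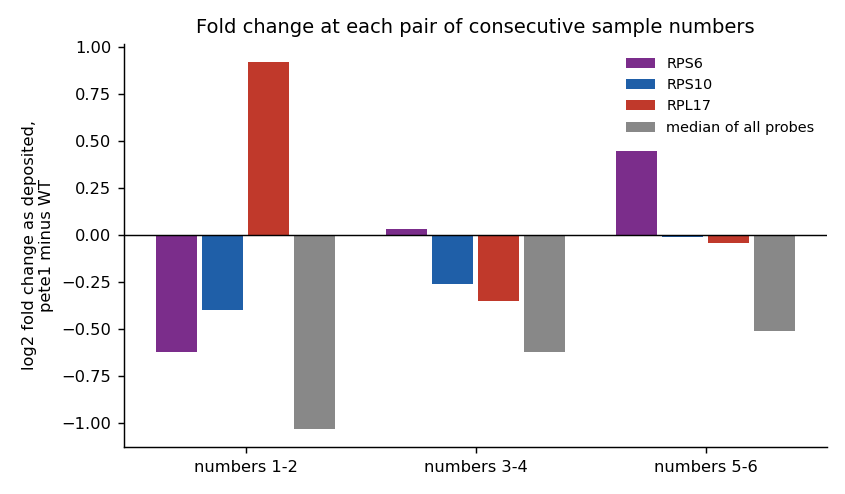
Deposited log2 fold change of pete1 against WT (vertical axis) at numbers 1 and 2, 3 and 4, and 5 and 6, for RPS6, RPS10, RPL17 and the median of all probes, each bar the difference of the means of 2 log2 values per genotype. RPS6 goes from -0.62 to 0.45 over the pairs and RPL17 is above 0 at numbers 1 and 2 only, at 0.92, while the median of all probes is below 0 at each.

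Spread between the pairs exceeded spread within them for RPS6 and RPS10. On the normalised log2 scale, the pair means of RPS6 spanned 1.72 in WT and 1.41 in pete1, against a largest difference within a pair of 0.52 and 0.79. For RPS10 the spans were 1.51 and 0.79, against 0.36 and 0.46 within a pair. RPL17 spanned 0.15 in WT, less than the 0.21 within a pair, and 1.09 in pete1 against 0.17. The median over the 2942 probes above 0 in all samples was a span of 0.69 in WT and 0.62 in pete1. The span exceeded the difference within pairs in 86.1% of these probes in WT and 74.6% in pete1.

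Ratios of deposited intensities between genes within a sample stay the same when a whole sample is multiplied by a constant, but not under quantile normalisation, and only their differences between samples can be read. The deposited log2 ratio of RPS6 to RPL17 was -3.48 to -2.30 in WT and -4.94 to -1.69 in pete1. It was lowest in pete1 1 and 2, at -4.68 and -4.94, and highest in pete1 5 and 6, at -2.01 and -1.69. The SD was 0.47 in WT and 1.39 in pete1 (n = 6 each), and the mean of pete1 minus that of WT was -0.22, which turned to 0.80 after quantile normalisation. The ratio of RPS10 to RPL17 was likewise lowest in pete1 1 and 2, at -4.06 and -3.51, against -2.55 to -1.28 in WT, and its difference in means was -0.40 as deposited and 0.21 normalised. The ratio of the small subunit genes RPS6 and RPS10 ran from -1.94 to -0.23 in WT and from -2.13 to 0.21 in pete1, with a difference in means of 0.18, and of 0.59 normalised. The genotypes overlapped in all 3 deposited ratios.

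Across the 12 samples, the normalised values of RPS6 and RPS10 had a Pearson correlation of 0.61, those of RPS6 and RPL17 of 0.29 and those of RPS10 and RPL17 of 0.28. RPL5 had a correlation of 0.78 with RPS6, of 0.68 with RPS10 and of 0.24 with RPL17. These are descriptions over 12 samples that share numbers and scaling, and differences between the genotypes enter them too. For RPS6, 65 of the other 594 single-gene probes above 0 in all samples had a higher correlation with it than RPS10 did. The same count was 30 for RPL5 and 178 for RPL17. With RPS10, it was 68 for RPS6, 50 for RPL5 and 187 for RPL17. With RPL17, it was 157 for RPS6, 161 for RPS10 and 176 for RPL5.

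The genes most like RPS6 were AT4G30680 (0.95), AT1G72020 (0.94) and PRK (AT1G32060, 0.93), phosphoribulokinase of the Calvin cycle. PRK had pair means of 0.462, 0.522 and 0.710 in WT and 0.849, 1.110 and 1.456 in pete1, highest at numbers 5 and 6 in both genotypes as was RPS6. The genes most like RPS10 were AT5G19900 (0.90), AT1G15140 (0.89) and AT3G12930 (0.88), all 3 highest at numbers 3 and 4 in both genotypes. Those most like RPL17 were AT2G25640 (0.95), AT2G36560 (0.95) and AT1G11800 (0.94). In pete1 their means at numbers 1 and 2 were 1.639, 0.935 and 1.747, above those at 3 and 4 (0.543, 0.504 and 0.644) and at 5 and 6 (0.656, 0.455 and 0.693). The genes named for RPS6, RPS10 and RPL17 were all picked for this likeness. Their shared high numbers, among them the high values in pete1 1 and 2, are therefore a description.

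**Figure D5:**
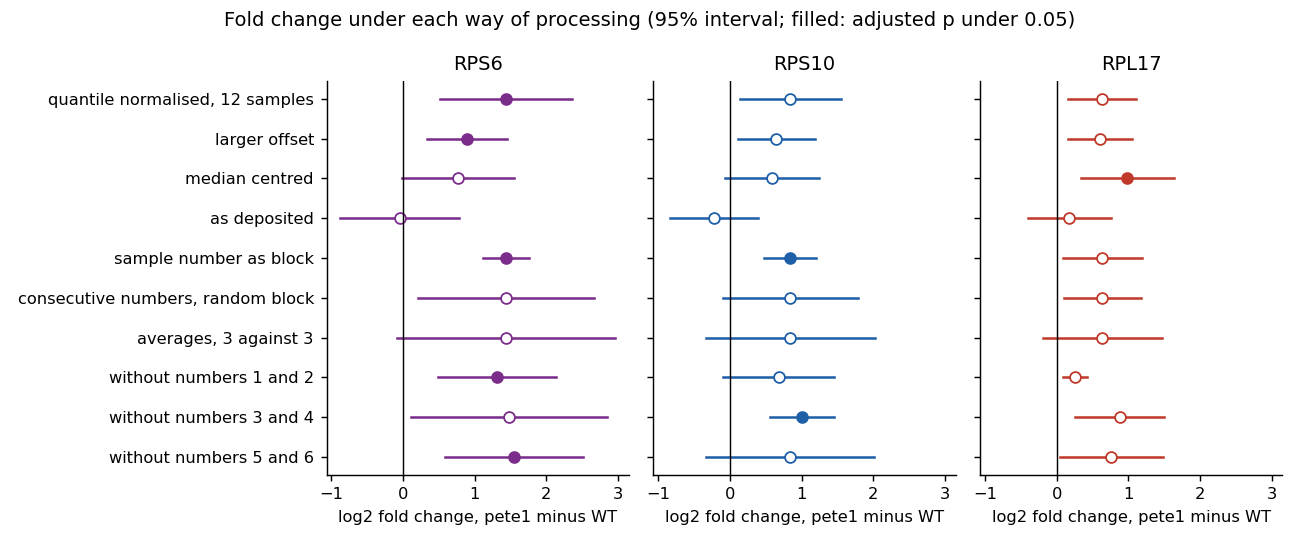
Log2 fold change of pete1 against WT (horizontal axis) of RPS6, RPS10 and RPL17 under 10 ways of processing (vertical axis), with 95% limma intervals, filled where the limma adjusted p over all probes was under 0.05. The estimate of RPS6 runs from -0.05 as deposited to 1.55 without numbers 5 and 6, and no gene is filled as deposited, with the random block or in the averages.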

How the data were processed

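Expression arrays measured total RNA of 6 WT and 6 pete1 samples. The deposited values are intensities, 1 per probe and sample, with a mean close to 1 in each sample and zeros. How the authors read, background-corrected and scaled the arrays is not given in the sources used here. Genotype and number came from the titles. Genes were named from the platform annotation, updated through the RefSeq gene table (TAIR10.1). Of 3439 probes, 692 had 1 gene (690 matched a locus), 870 several and 1877 none. No coordinates are given because the values name no genome build. The gene tables name no cytosolic or mitochondrial ribosomal protein among these probes, so these were not analysed here.

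The smallest positive intensity (4.74e-05) was added, log2 was taken, and samples were quantile normalised because their medians differed by up to 2.25-fold. In R 4.3.3, limma 3.58.1 (lmFit, then eBayes, with statmod 1.5.0 for the random block) tested pete1 against WT per probe, two-sided, and p-values were adjusted by Benjamini-Hochberg over the whole table. The fit was tested on simulated data in which all samples were independent. That simulation could not show how the likeness of consecutive numbers affects the calls. A fold change is thus on the log2(intensity + offset) scale. Alternatives were the scaling, the offset (0.0514, the 10th percentile), a filter on zeros, blocks, averages and left-out samples. Named genes were the 4 genes, other listed genes with a probe of their own and, for each of the 4 above 0 in all samples, the 3 single-gene probes with the highest Pearson correlation with it. The genes and lists were chosen with earlier results of these data known.

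The titles share sample numbers between the genotypes. Deviations from the genotype mean correlated at 0.221 to 0.452 between equally numbered samples of both genotypes, for each of the 6 numbers. Consecutive numbers within a genotype had a median of 0.255. Both samples of such a pair enter the mean that is subtracted, which lowers their correlation. This median is therefore not comparable with the values across genotypes. Unequal numbers were not compared across genotypes, so pairing by single number was not told apart from likeness by pair of numbers. The fit with the number as a block takes the 6 numbers as independent and makes no allowance for the likeness of consecutive numbers.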

Additional observations from a re-analysis of the deposited data

How the results depend on the processing

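RPS6 (1.44 on the log2 scale) was -0.05 as deposited, with 12 samples, averages or the random block (added after seeing the data). It kept its direction but lost its call after median centring (0.77), with the random block, in averages and in averages blocked on the pair (1.44 in each), without numbers 3 and 4 (1.48), and as deposited without pete1 1 and 2 (0.37, added). RPS10 was -0.22 as deposited in the same 3 fits. It gained a call with the number as a replicate block (0.85) and without numbers 3 and 4 (1.0). RPL17 gained one after median centring (0.99), among probes above 0 in all samples (0.64) and without pete1 1 and 2 (0.28, added). It gained none without numbers 1 and 2 of both genotypes (0.26). As deposited without pete1 1 and 2 alone, RPL17 was -0.24 (added). RPL5 was -0.42 as deposited in the 3 fits and -0.29 without pete1 1 and 2 (added). RPL34 kept its direction and did not pass in any fit in which it was tested. Leaving out 1 sample gave 1.22 to 1.64 for RPS6 (called in 7 of 12), 0.70 to 1.06 for RPS10, 0.49 to 0.71 for RPL17 and -3.37 to -0.87 for RPL34.

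Of the 4 genes, 1 was called. The count was 2 with the number as a block (743 of 3439 probes called) and 2 without pete1 1 and 2 (634 of 3439). Among probes above 0 it was 2 of 3 tested, where 737 of 2942 probes were called. As deposited without pete1 1 and 2 it was 1, lower in pete1. It was 0 as deposited with 12 samples, with the random block and in all averages, and 0 to 2 on leaving out 1 sample. Of all probes, 746 were called, against 1861 as deposited (1866 without pete1 1 and 2), 163 with the random block, 7 in averages, 0 in averages blocked on the pair (there limma gave 591 an unadjusted p under 0.05), 363 in averages as deposited, and 550 to 722 on leaving out 1 sample. The causes were not tested, except that averages leave fewer samples. With median centring RPL29, at 0 in every sample, took a log2 fold change of 0.81 and a call (limma adjusted p = 8.15e-05) by construction. Centring shifts all probes of a sample by that sample's own median, and the medians were lower in pete1. No measure of signal over background was used here, and the values of RPS6 and RPL34 lie near the lower end. RPS10 was also low in WT 1, 2, 5 and 6, at the 14.0, 14.1, 20.4 and 17.8 percentile. It ranked higher in WT 3 and 4 (40.9 and 32.3) and in pete1 (24.9 to 53.6).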
